A study of Drosophila melanogaster with 3 samples.

Results

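The genes described are the 10 Drosophila melanogaster insulator and architectural protein genes Cp190, Chro, BEAF-32, CTCF, su(Hw), mod(mdg4), Ibf1, Ibf2, pzg and Dref, taken by their Ensembl symbols from the 13945 protein-coding genes on the 6 chromosome arms 2L, 2R, 3L, 3R, 4 and X. What was measured is where the product of CG2116 sits at their starts. Whole embryos of both sexes, aged 0 to 24 h, came from a stable transgenic line that carries eGFP fused to the C-terminus of CG2116, and anti-GFP chromatin immunoprecipitation was followed by sequencing (ChIP-seq). All 3 libraries are of this single group and carry the biological replicate numbers 1, 2 and 4, and no second genotype, treatment or untagged line is among the samples. The labels give no cell type below the whole embryo, so every value is an average over all its tissues and over embryonic development. The 3 replicate lists and the pooled list hold 30000 candidate peaks each, and 7137 peaks make up the list filtered by irreproducible discovery rate (IDR), a measure of how well peak ranks repeat between replicates. Sequencing depth is unknown here, and since the labels do not say how the replicates were collected, part of their spread may be technical.

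Insulator proteins bind DNA at the borders of regulatory domains and limit which enhancer reaches which promoter. In flies the DNA-binding members (BEAF-32, CTCF, su(Hw), Ibf1 and Ibf2) recruit cofactors that carry a BTB domain, Cp190 and mod(mdg4). Many BEAF-32 sites lie just upstream of housekeeping genes. Dref binds the DNA replication-related element TATCGATA at such promoters, BEAF-32 binds clusters of the overlapping string CGATA, and Chro and pzg are found together in the open interbands of polytene chromosomes. The measurements below concern the start regions of the genes that encode these proteins.

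Sequence at 8 of the starts or summits is shown first, because the short elements counted further on differ between the members. The stretches of Cp190, Ibf2, mod(mdg4), pzg and su(Hw) include the strongest IDR summit. Those of CTCF and Dref end at the start, upstream of the summit, and that of Ibf1 includes the weaker summit at its own start. Each stretch was read from the RefSeq copy of the dm6 assembly in the direction of transcription of the gene named. Positions count from the annotated transcription start site (TSS) as 0, with negative values upstream. Capitals mark TATCGATA, CGATA on either strand (read as TATCG on the other) and GCAACNCT on either strand.
Cp190 (chr3R:15275220-15275286, minus strand, -45 to 21): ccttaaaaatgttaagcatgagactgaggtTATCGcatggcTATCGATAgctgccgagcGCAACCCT
Ibf2 (chr3R:9258473-9258546, minus strand, -45 to 28): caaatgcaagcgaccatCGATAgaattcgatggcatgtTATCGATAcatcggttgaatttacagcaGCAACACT
Ibf1 (chr3R:9258889-9258963, plus strand, -75 to -1): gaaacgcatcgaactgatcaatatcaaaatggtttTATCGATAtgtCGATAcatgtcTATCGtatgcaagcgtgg
CTCF (chr3L:7356714-7356803, minus strand, -90 to -1): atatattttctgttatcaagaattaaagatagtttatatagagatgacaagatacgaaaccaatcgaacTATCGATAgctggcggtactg
mod(mdg4) (chr3R:21377402-21377491, minus strand, -90 to -1): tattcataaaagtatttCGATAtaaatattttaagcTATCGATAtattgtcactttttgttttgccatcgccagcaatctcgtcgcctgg
Dref (chr2L:9967230-9967304, minus strand, -75 to -1): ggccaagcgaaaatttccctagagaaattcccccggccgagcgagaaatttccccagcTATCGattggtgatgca
pzg (chr3L:21285918-21285947, plus strand, -181 to -152): gtTATCGtaatgaacgGCAACGCTgtgaga
su(Hw) (chr3R:14308859-14308939, minus strand, -350 to -270): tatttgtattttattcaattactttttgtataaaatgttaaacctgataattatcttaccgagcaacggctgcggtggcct

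Cp190 and Ibf2 share an arrangement: in both, TATCGATA covers the start itself (positions -4 to 3 at Cp190 and -7 to 0 at Ibf2) and GCAACNCT follows in the first bases of the transcript (14 to 21 and 21 to 28). How often this arrangement occurs at other starts was not counted. The start of Ibf1 has TATCGATA and further copies of CGATA in the bases before it, CTCF has TATCGATA at -21 to -14 and mod(mdg4) at -54 to -47. Dref, whose product binds this element, has only the shorter CGATA, at -17 to -13. At pzg the summit lies in the leader of a neighbouring gene, where CGATA and GCAACNCT stand close together, and the su(Hw) stretch around the summit holds none of these strings.

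An IDR summit lay no more than 500 bp from a start at each of the 10 genes, against 42.6% of all protein-coding genes. The members were proposed with results of these data known, and the count is a description. With any pooled peak it was again 10, against 60.4% of genes. All 10 also had, in each replicate, one of that replicate's 7137 strongest summits within 500 bp of a start (37.2% of genes). Among the 3568 strongest IDR peaks 8 of the 10 had a summit (29.4% of genes), with su(Hw) and mod(mdg4) outside, and among the 1784 strongest 6 did (16.7%), with CTCF and pzg outside as well. Peak signal has no absolute scale and was made comparable as relative signal. This is the signal of the replicate summit that lies within 100 bp of the IDR summit, as a multiple of the median over all such matched summits (77.8, 99.04 and 133 in replicates 1, 2 and 4). Across the members the mean relative signal ran from 0.823 to 27.1. The 10 genes hold 9 distinct summits, since Ibf1 and Ibf2 share one, and the median over these 9 was 1.94, beside 1.26 over the 4182 distinct strongest summits of all bound genes. Counted by gene the medians were 4.09 over the members and 1.33 over the bound genes, and the former is the midpoint of a wide gap. Relative signal was 6.25 or more at 5 members (Cp190, Chro, Ibf1, Ibf2 and Dref) and 1.94 or less at the other 5, which lie on both sides of the median bound gene.

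**Figure D1:**
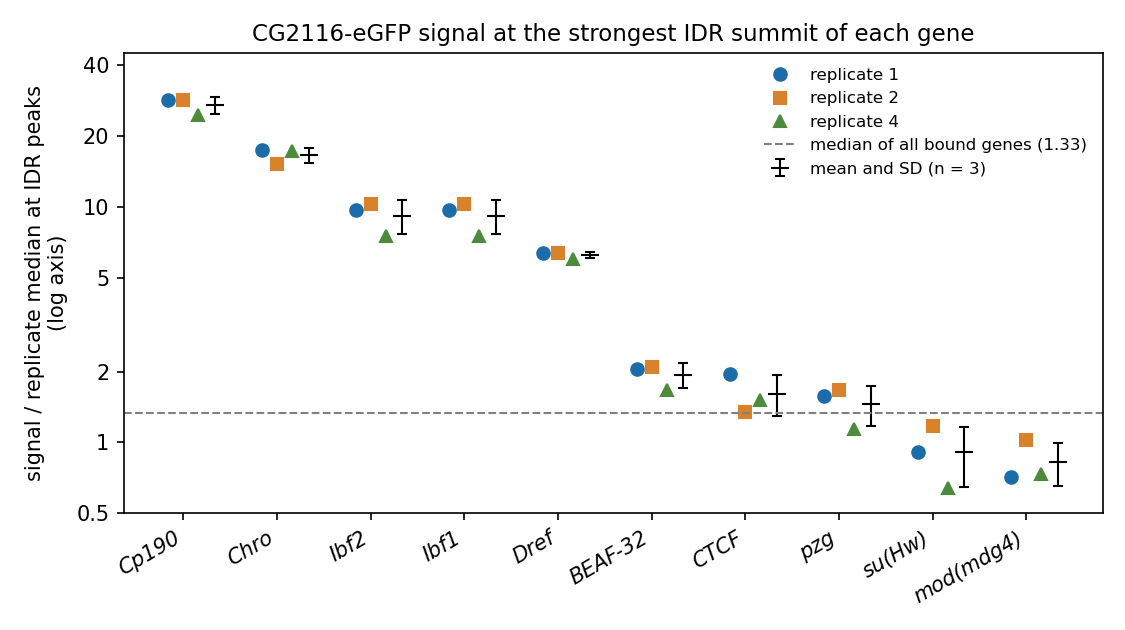
Relative signal at the strongest IDR summit of each gene in replicates 1, 2 and 4 (log axis), with mean and SD (n = 3); the dashed line is the median of all bound protein-coding genes, 1.33. Cp190, Chro, Ibf1 and Ibf2 (1 shared summit) and Dref stand at 6.25 or more, and the others at 1.94 or less.

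The cofactor genes ranged from the strongest start, Cp190, to that of mod(mdg4), which with su(Hw) was the weakest. Cp190 encodes the BTB zinc-finger protein that several insulator proteins recruit. Its peak (3R, 15274699 to 15275737) had its summit 13 bp upstream of the more upstream of its 2 starts, in intergenic sequence. Relative signal was 28.3 in replicate 1, 28.4 in replicate 2 and 24.6 in replicate 4, a mean of 27.1 ± 2.204 (SD, n = 3). It was the 90th peak of the IDR list and ranked 88th, 84th and 100th in the 3 replicates, and its summit moved by at most 10 bp between them. Among bound genes Cp190 ranked 126 of 5941.

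Chro encodes a chromodomain protein of polytene interbands and of the spindle matrix. Its peak (3L, 22878559 to 22879306) had a single summit, 107 bp downstream of the most upstream start and 109 bp upstream of the start that 3 of its 5 transcripts use, within an annotated 5' untranslated region of the gene. The values were 17.5, 15.2 and 17.2 in replicates 1, 2 and 4, a mean of 16.6 ± 1.21 (SD, n = 3). All 3 lay under the lowest value of Cp190 and above the highest of the next gene. In the replicate lists the summit lay 75 to 83 bp from the most upstream start, somewhat nearer to it than in the pooled list.

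The gene pzg, also called Z4 or putzig, encodes a zinc-finger partner of Chro that also joins the NURF remodeller and a complex with Dref. Relative signal at its summit (3L, 21285690 to 21286189) was 1.57, 1.67 and 1.14 in replicates 1, 2 and 4, a mean of 1.46 ± 0.284 (SD, n = 3). This is close to the median of bound genes and far below its partner Chro. The summit lay 159 bp upstream of pzg but only 22 bp inside CG12974, a gene transcribed the other way, in its 5' untranslated region.

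The gene mod(mdg4) encodes many BTB proteins that differ in their last exons, which are joined by trans-splicing, and 1 of them is part of the gypsy insulator complex. All 22 of its annotated transcripts share 1 start. The summit 80 bp upstream of it (3R, 21377231 to 21377730) had a relative signal of 0.716, 1.02 and 0.734 in replicates 1, 2 and 4, a mean of 0.823 ± 0.171 (SD, n = 3). This was the lowest mean of the members, but by pooled signal mod(mdg4) (236) was above su(Hw) (221), and su(Hw) was the lower of them in replicate 4. Its position varied by only 5 bp between replicates, less than at any other member. Further IDR summits lay in introns of its 26556 bp gene, beyond 500 bp from the start. The strongest of these (3R, 21365228 to 21365685), 11878 bp into the gene, stood at 3.72, 3.88 and 2.98, a mean of 3.53 ± 0.4801 (SD, n = 3), and its lowest replicate was above the highest at the start. Another, 3837 bp in and at 1.34 ± 0.253 (SD, n = 3), lies in exons and 5' untranslated regions of separately annotated precursors (AA, N and O) that supply alternative ends to the trans-spliced transcripts. A pair 17300 and 17500 bp in had pooled signals of 443 and 461, but the farther of them was matched in replicate 2 alone. The last, at 910 bp, stood at 0.731 ± 0.177 (SD, n = 3).

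Genes for the BED-finger DNA-binding proteins included both strong and moderate starts. Ibf1 and Ibf2 encode proteins that bind each other and Cp190. They are divergent neighbours with starts 463 bp apart, and 1 peak (3R, 9258168 to 9259262) carried 3 IDR summits across the gap. The strongest lay 3 bp upstream of Ibf2 and 460 bp upstream of Ibf1, at 9.74, 10.3 and 7.504 in replicates 1, 2 and 4, a mean of 9.19 ± 1.49 (SD, n = 3). The middle summit, 205 bp upstream of Ibf2, stood at 4.53, 8.21 and 1.45. The summit 49 bp upstream of Ibf1 stood at 1.01 in replicate 1 and 4.73 in replicate 2, and replicate 4 had no summit within 100 bp of it. The value assigned to Ibf1 is therefore that of the Ibf2 start. With a window of 250 bp, a setting added after seeing the data for single genes, Ibf1 falls to 2.87 and Ibf2 is not affected.

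Dref encodes the BED-finger factor that binds TATCGATA. Its summit (2L, 9966863 to 9967448) lay 50 bp downstream of its start, in the 5' untranslated region, at 6.35, 6.38 and 6.02 in replicates 1, 2 and 4, a mean of 6.25 ± 0.2001 (SD, n = 3). The coefficient of variation of 3.201% was the lowest of the members. Only 2.85% of the bound genes matched in all 3 replicates had a lower one. The ribosomal protein gene RpL13 starts 84 bp away on the other strand. In the replicate lists a further summit lay 93 to 139 bp upstream of Dref, close to the RpL13 starts, at 4.42% of the signal of the main summit in replicate 1, 40.7% in replicate 2 and 22.5% in replicate 4.

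BEAF-32 binds CGATA through a BED finger and is made in isoforms from 3 annotated starts. Its strongest summit within 500 bp (2R, 14771166 to 14771352) lay 27 bp upstream of the most downstream start, in an exon shared with an antisense RNA on the other strand. Relative signal was 2.06, 2.09 and 1.67 in replicates 1, 2 and 4, a mean of 1.94 ± 0.238 (SD, n = 3). A weaker IDR summit lay 176 bp downstream of the same start, at 0.633 ± 0.162 (SD, n = 3). At the most upstream start there was no IDR or pooled summit within 500 bp, and replicate 4 alone listed one 55 bp before it. Outside the window of 500 bp, 964 bp before that start, stood a far stronger peak (2R, 14769059 to 14770008), 52nd of the IDR list. Its values were 38.1, 35.3 and 38.6, a mean of 37.3 ± 1.78 (SD, n = 3). It lay 82 bp upstream of Spred, a gene named here after its value was seen, and was 19.2 times as strong as the summit at BEAF-32.

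The zinc-finger DNA-binding proteins had moderate to weak starts. CTCF encodes the fly form of the factor that marks domain borders in vertebrates. Its summit (3L, 7356426 to 7356925) lay 37 bp inside the gene, in the 5' untranslated region, at 1.96, 1.35 and 1.51 in replicates 1, 2 and 4, a mean of 1.61 ± 0.319 (SD, n = 3). No other protein-coding start lies within 1000 bp, and the annotation has copies of the transposable element Quasimodo that begin 169 and 466 bp upstream.

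The gene su(Hw) encodes the zinc-finger protein that binds the insulator of the gypsy retrotransposon. Its IDR summit (3R, 14308649 to 14309148) was the farthest from its gene after that of Ibf1, 310 bp upstream, and nearer to Polr2I, a gene for an RNA polymerase II subunit whose start is 190 bp away. The values were 0.913, 1.17 and 0.643 in replicates 1, 2 and 4, a mean of 0.907 ± 0.262 (SD, n = 3). The coefficient of variation, 28.9%, was the highest of the members. The summit's position ranged over 157 bp between the replicates, also the most among the members, and su(Hw) is the member lost when the window is 250 bp.

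**Figure D2:**
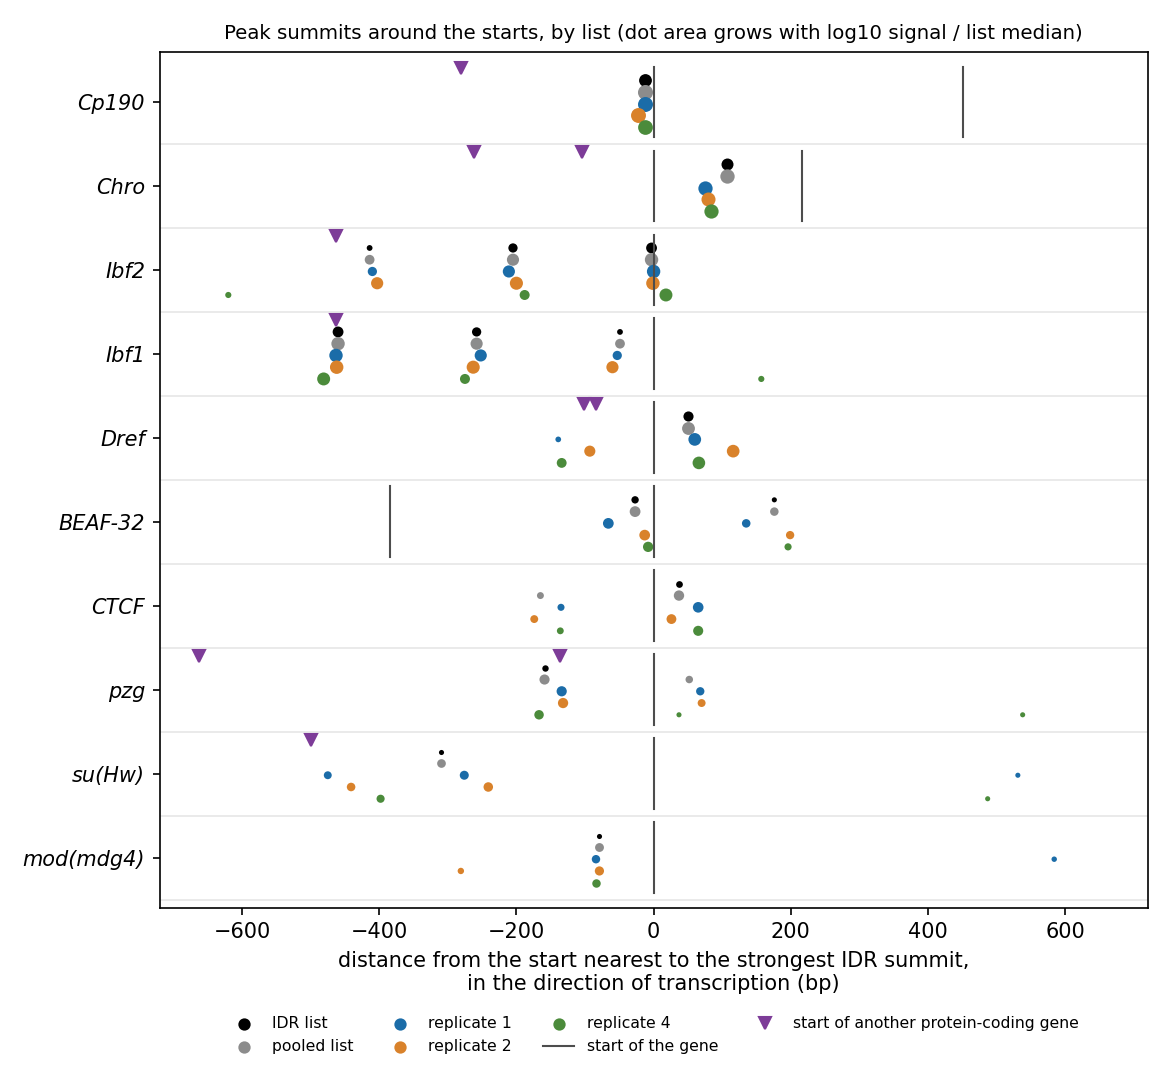
Summits of the IDR, pooled and 3 replicate lists by distance (bp, in the direction of transcription) from the start nearest to each gene's strongest IDR summit; vertical lines are the gene's own starts and triangles those of other protein-coding genes. Starts and summits beyond the axis, among them 1 start each of Chro and BEAF-32, are not drawn. The strongest summits of Cp190 and mod(mdg4) coincide between lists within 10 bp, those of su(Hw) spread over 157 bp, and the 3 summits between Ibf1 and Ibf2 are the same for both genes.

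The order was clear between neighbours at the top and only in part at the bottom. From Cp190 to Chro, from Chro to the Ibf1 and Ibf2 summit, from there to Dref and from Dref to BEAF-32 the mean fell by factors of 1.63, 1.81, 1.47 and 3.22, and in each step the lowest replicate of the stronger gene was above the highest of the weaker. Among BEAF-32, CTCF, pzg, su(Hw) and mod(mdg4) the ranges of neighbours in the order overlapped, with ratios of 1.102 to 1.61, although BEAF-32 was above CTCF, and pzg above su(Hw), in all 3 replicates. Genes farther apart in the order did separate. The lowest replicates of BEAF-32 (1.67) and CTCF (1.35) were above the highest of su(Hw) (1.17), and these genes and pzg (lowest 1.14) were above the highest of mod(mdg4) (1.02). With 3 libraries of 1 group, ranges are given in place of a test. The coefficient of variation over replicates had a median of 16.2% over the 9 summits, beside 16.5% over the 5398 bound genes matched in all replicates.

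In the ranking of all bound genes by pooled signal, 5 of the members were in the strongest 10%, with Ibf1 and Ibf2 both placed by the summit they share. The members above the 95th percentile of mean relative signal, 9.81, were Cp190 and Chro. The genes next to each member in this order were diverse. Cp190 (pooled signal 8254) stood between the start shared by ca and ncd (8303) and that of Cdc50 and rngo (8182). Chro (5102) was next to RpS27A and Ip259 (5166) and to dUTPase and Art8 (5092). Ibf1 and Ibf2 (2685) lay between CG10565 (2725) and the start of hob and nSMase (2681), and Dref (1894) between Lrch and CLIP-190 (1902) and lost (1882). BEAF-32 had CG10376 with CG10343 and CG11151 as neighbours, CTCF had Fak with Spt5 and LSm1 with Xpd, and pzg had aos and Ppcs. The neighbours of su(Hw) were CG42507 and Clc, and those of mod(mdg4) were mRpL13 and dco.

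**Figure D3:**
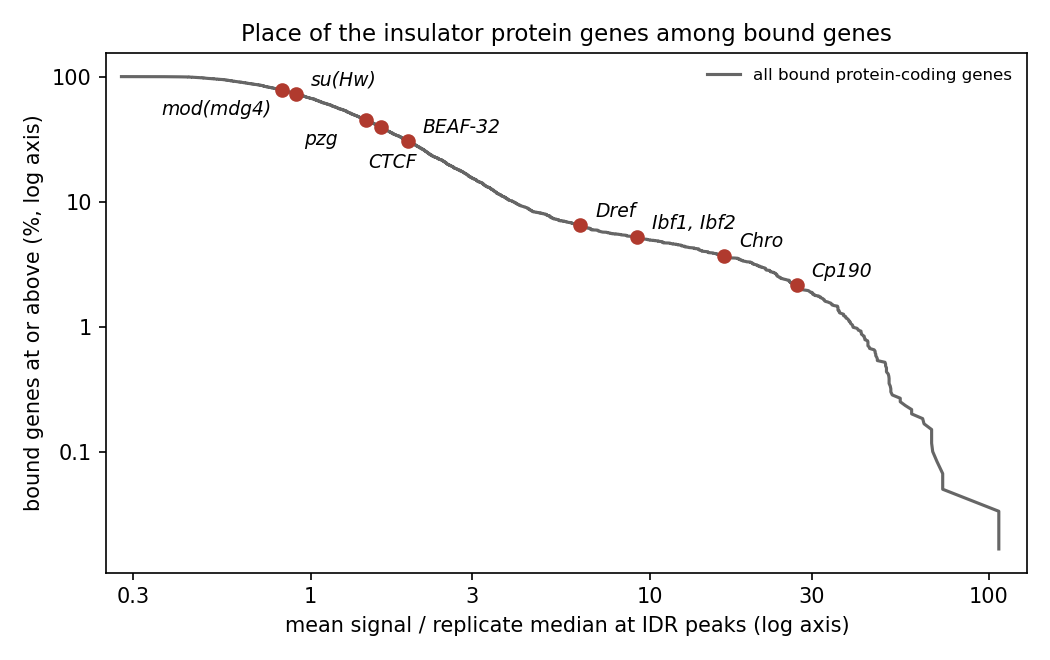
Share of bound protein-coding genes (%, log axis) with a mean relative signal at or above each value (log axis), with the members as points. Cp190 and Chro lie beyond the 95th percentile of 9.81, while su(Hw) and mod(mdg4), at 0.907 and 0.823, lie below the median of 1.33.

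Most of these genes share their start region. Another protein-coding gene starts within 1000 bp of 7 of the 10, namely Cp190 (CG4338, 281 bp away), Chro (Ssl1, a subunit of the repair and transcription factor TFIIH, 105 bp), su(Hw) (Polr2I, 500 bp), Ibf1 and Ibf2 (463 bp), pzg (CG12974, 137 bp) and Dref (RpL13, 84 bp). In each of these cases the partner is transcribed the other way, and the summit lies within 500 bp of its start too, so the peak cannot be given to 1 of the pair. Ibf2 has a further neighbour on its own strand, CG16736, 785 bp away. The share of genes with such a neighbour was 42.9% over all protein-coding genes and 66.7% over bound ones. All 7 had an IDR summit, as did 66.2% of all genes with a neighbouring start, and so did the other 3, BEAF-32, CTCF and mod(mdg4), against 24.8% of all genes without one. The 3 members with no other protein-coding start within 1000 bp stood at 1.94, 1.61 and 0.823. The members with one ranged from 27.1 at Cp190 to 1.46 at pzg and 0.907 at su(Hw). At BEAF-32 the start of Spred lies beyond that distance, so the peak of 37.3 described above, 82 bp upstream of Spred, does not enter here. Over all bound genes, 72.9% of the strongest 10% and 66.1% of the others had a neighbouring start.

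Further summits near the members had a nearly fixed spacing in genome coordinates, as did those near other bound genes. The replicate lists hold 23 distinct summits within 500 bp of a member start besides the strongest one of each start region and list. Of these, 18 lay 199 to 212 bp from the strongest summit, always at higher coordinates, and 0 lay 190 to 230 bp on the lower side. Counted in the same way over all 5941 bound genes, 50.9% of 10240 further summits lay 190 to 230 bp at higher coordinates and 0.146% at that distance at lower ones, so the one-sided spacing is not particular to these genes. They occurred at 7 start regions, 9 at genes of the plus strand (the region of Ibf1 and Ibf2 counted with Ibf1) and 9 at genes of the minus strand, and so were downstream at pzg and BEAF-32 and upstream at CTCF, Dref, su(Hw) and mod(mdg4). Their signal was 4.42% to 79.5% of the strongest. The middle summit between Ibf1 and Ibf2 belongs to this class, and the summit next to Ibf1 lies a further step on, 411 bp from the strongest in the IDR list. Whether such summits are separate sites or come from the peak calling was not tested. The values above for the weaker summits at Ibf1, BEAF-32 and Dref and for the intronic pair of mod(mdg4) are to be read with this spacing. At su(Hw) such a summit had 63.8% and 65.8% of the strongest signal in replicates 1 and 2. Those replicates listed summits 276 and 475 bp, and 241 and 441 bp, upstream, and replicate 4 listed one between, at 398 bp. Whether the spread at su(Hw) mixes summits was not tested.

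Short sequence elements near the summits were counted within 100 bp to each side of the 9 distinct summits, on both strands. TATCGATA was present at 4 (Cp190, Ibf2 with Ibf1, CTCF and mod(mdg4)), and at 16.3% of all IDR promoter summits, 1.46% of weaker pooled promoter summits and 6.45% of protein-coding starts. CGATA, which every TATCGATA contains on both strands, was present at 8, all but su(Hw), beside 53.9%, 26.2% and 37.1%. GCAACNCT, a string noticed in earlier work on these data, was present at 3 (Cp190, Ibf2 with Ibf1 and pzg) beside 8.77%, 3.03% and 4.65%. The M1BP element GGTCACACT and the string TGGCGC from the CTCF consensus were at 0 of the 9, beside 7.84% and 11.03% of IDR promoter summits. The core promoter strings GTATTTTT and CATCNCTA, GAGAG for the GAGA factor, and TGCATA from the su(Hw) consensus were each at 1, beside 7.61%, 7.99%, 16.6% and 10.9%. TATAAA was at 4 and the initiator string TCAGT at 6, beside 31.98% and 30.7%. The 4 summits with TATCGATA had a mean relative signal of 27.1 (Cp190), 9.19 (Ibf2 with Ibf1), 1.61 (CTCF) and 0.823 (mod(mdg4)). Those without it stood at 16.6 (Chro), 6.25 (Dref), 1.94 (BEAF-32), 1.46 (pzg) and 0.907 (su(Hw)). Whether its presence goes with strength was not tested.

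Related genes were described from lists of known partners. Among 10 other insulator protein genes 6 had an IDR summit at a start, with a median relative signal of 1.04 and M1BP (1.71 ± 0.334, n = 2, with no match in replicate 1) and pita (1.45 ± 0.362, SD, n = 3) the strongest. Those without were Elba1, Elba2, Elba3 and insv, of which insv had a pooled summit. The highest mean of this list, that of M1BP, was below that of BEAF-32, with overlapping replicate ranges. It was above the means of CTCF (1.61), pzg (1.46), su(Hw) (0.907) and mod(mdg4) (0.823). The 10 genes described and these 10 come from a larger set of insulator genes that was split with results known, so the difference between them is not independent evidence. The cohesin list covers the ring that holds chromatin loops and sister chromatids, and also factors linked to it. Of its 9 genes 8 had a summit, with a median of 2.63. The highest were pds5 at 6.702 ± 0.2704 and san at 5.68 ± 1.17 (SD, n = 3 each), and the loader gene Nipped-B had no summit. All 7 condensin genes had one, with a median of 2.75, and SMC2 at 39.04 ± 2.61 (SD, n = 3) was above Cp190, followed by Cap-H2 at 4.77 ± 0.629 (SD, n = 3). All 5 genes for partners of the gypsy insulator had one, with Topors (1.62 ± 1.13, n = 2) and HIPP1 (1.48 ± 0.417, n = 3) the highest and a median of 1.28. Of 5 partners of Chro and Dref 4 did, with east at 3.396 ± 0.3303 and JIL-1, the kinase that Chro binds, at 1.11 ± 0.101 (SD, n = 3 each), and Skel did not. The background for all these counts is the 42.6% of protein-coding genes given above.

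**Figure D4:**
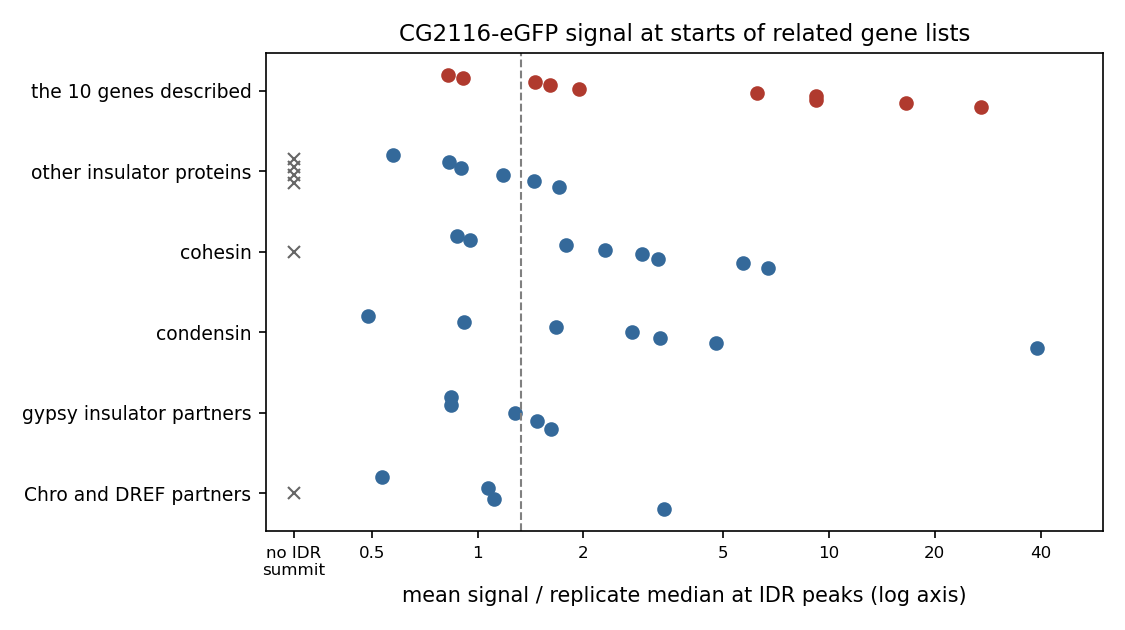
Mean relative signal at the strongest IDR summit (log axis) for the 10 genes described and for 5 related lists, 1 point per gene; crosses at the left are genes with no IDR summit within 500 bp of a start and have no value, and the dashed line is the median of bound genes, 1.33. SMC2 at 39.04 is the highest point, and the other insulator protein genes reach at most 1.71.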

How the data were processed

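ChIP-seq peak lists of 3 libraries of 1 group were used. Per the labels, chromatin was sonicated to fragments of 200 to 800 bp. The authors deposited 5 lists on dm6, each with a signal per peak (the peak caller's value), a −log10 q and a summit offset, made per the deposited description of the files from each replicate, from the pooled alignments and by IDR. Which caller, aligner and IDR threshold were used is not given in the sources. Lists on dm3 were not analysed here. The deposited −log10 q was not used for ranking, since all 10 members are at its maximum of 4.12.

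Genes with an IDR summit no more than 500 bp from any annotated start were called bound (Ensembl release 115, arm lengths checked against the RefSeq copy of dm6), and the summit with the highest pooled signal was used for each. Replicate summits were matched within 100 bp, nearest first. Coordinates are 1-based. Python 3.11.15, pandas 2.3.3, NumPy 2.4.6 and matplotlib 3.10.9 were used, and the assignment of summits, matching and motif search were tested on simulated data. The members and lists were chosen with earlier results of these data known, so no set test was run. With 1 group there was no comparison between conditions. The genes named were all members, genes sharing their start regions, the next gene above and below each in pooled signal, and of each related list the 2 strongest and all without a summit. Mtor is listed under its current symbol Mgtor. Alternatives changed the window, match distance, scaling, peak set, motif window and replicates.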

Additional observations from a re-analysis of the deposited data

How the results depend on the processing

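All 10 members kept an IDR summit with a window of 1000 bp and with protein-coding transcripts only. All were also kept without peaks beside a stronger pooled summit within 400 bp and without any 1 replicate (10 to 10). With a window of 250 bp 9 did, and among the 3568 strongest IDR peaks 8 did, the latter beside 29.4% of all protein-coding genes. For the other settings no share over all genes is given, so those counts have no background. The IDR list comes from all 3 libraries, so leaving out a replicate only filters it. The median relative signal of the members, 4.09, was 2.87 with a window of 250 bp, where Ibf1 takes the weaker summit at its own start and su(Hw) has none. That 2.87 is the value of Ibf1 itself, with an SD of 2.63 from 2 replicates (1.01 in replicate 1 and 4.73 in replicate 2). With 1000 bp, where BEAF-32 takes the summit at Spred (37.3), the median was 7.72. Without 1 replicate the median was 4.03 to 4.22. Scaling by the median of all replicate peaks multiplied every member's value by 4.099 to 4.11, and scaling by promoter IDR peaks by 0.856 to 0.861. Cp190 had the highest and mod(mdg4) the lowest mean under every scaling and match distance. Matching within 50 bp multiplied all members' values by 0.947 to 0.965, and left Dref with 2 replicates (5.92) and su(Hw) with 1 (0.875). With 50 bp to each side of the summit, TATCGATA and GCAACNCT were at 3 summits, CGATA and TCAGT at 5 and TATAAA at 2. GTATTTTT, CATCNCTA and TGCATA fell to 0. With 250 bp, TATCGATA and GCAACNCT were at 4, CGATA at 9, TATAAA at 5 and TCAGT at 7. GGTCACACT was at 1, GTATTTTT at 2 and TGGCGC at 2. For these widths no share over other summits or starts is given, so these string counts have no background either. No paired analysis was possible because there is a single group. No outlier test was run on 3 values. Depth is unknown, so the precision it allows is too, and neither input nor untagged-line data were analysed here.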
